A study of Mus musculus with 35 samples.

Results

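The TGFβ ligands *Tgfb1*, *Tgfb2* and *Tgfb3*, the receptors *Tgfbr1*, *Tgfbr2* and *Tgfbr3* and the latent TGFβ-binding proteins *Ltbp1*, *Ltbp2*, *Ltbp3* and *Ltbp4* were read from the gene counts by symbol. Each symbol had 1 row, which gave 10 of the 53465 genes in the table. The data are bulk RNA-seq libraries of mKate2+ tumor cells of a mouse pancreatic ductal adenocarcinoma (PDAC) model, sorted from pancreas tumors, liver metastases or lung metastases. There were 35 libraries in 12 groups, defined by organ, by day after doxycycline (Dox) withdrawal (7 or 14) and by the label Smad4 off (18 libraries) or Smad4 on (17 libraries). The numbers labelled off and on were 3 and 2 for the pancreas, 2 and 3 for the liver and 4 and 2 for the lungs on day 7. On day 14 they were 2 and 3, 3 and 3, and 4 and 4.

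All groups, those labelled off included, came from KC-shSmad4 cells, which carry *Ptf1a*-Cre, an rtTA3 and mKate2 reporter at *Rosa26* and a Dox-dependent, GFP-linked hairpin against *Smad4* at *Col1a1*, and which were also transduced with luciferase. Several independent cell lines were in use, and which line a library came from is not given in the sources used here. The hosts were female *Foxn1*nu nude mice of 6 to 8 weeks, which lack T cells, kept on Dox so that tumors formed with the hairpin induced. Cells were injected into the pancreas, into the spleen (with splenectomy) to reach the liver, or into the tail vein to reach the lungs. By the study's design, mice of the groups labelled on were taken off Dox at 4 weeks (pancreas), 5 weeks (liver) or 6 weeks (lungs) after injection and those labelled off stayed on it, a treatment that is known here from the labels alone. The labels number the libraries of a group without saying that each number is a separate mouse, so p-values measure only the spread between these libraries.

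TGFβ is secreted in a latent complex, in which the cut-off propeptide holds the mature ligand and a latent TGFβ-binding protein ties the pair to the extracellular matrix. Once freed, for example by αv integrins, the ligand binds TGFBR2, which activates TGFBR1, which in turn phosphorylates SMAD2 and SMAD3, and these act on DNA together with SMAD4. In the pancreas TGFβ is known to restrain epithelial growth and to drive epithelial-mesenchymal transition and fibrosis, and PDAC often loses SMAD4.

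The targeted gene went against the labels. *Smad4* mRNA lay between 69.9 and 143 CPM (counts scaled by library size) in the 18 libraries labelled off and between 14.8 and 22.4 CPM in the 17 labelled on, a log2 fold change of -2.53 (SE 0.0776, adjusted p = 2.13e-21, edgeR over all libraries). Whether the labels on and off are exchanged in the table could not be settled from these files. They were kept as deposited, and every difference between labels is given as labelled on against labelled off, which by *Smad4* mRNA is low against high *Smad4*. If the labels are exchanged, every direction given by label is the reverse of that of Dox withdrawal. Library totals ran from 11885461 to 43571007 counts, so that the 3 counts taken as a floor stand for 0.0689 to 0.252 CPM, and the fewest reads of any member in any library were 24, for *Tgfb2*. Carcinoma markers (*Krt8*, *Krt18*, *Krt19*, *Epcam*, *Cdh1*) summed to 2181 to 14888 CPM. The 8 fibroblast markers (*Col1a1*, *Col1a2*, *Col3a1*, *Pdgfra*, *Pdgfrb*, *Dcn*, *Lum*, *Pdpn*) summed to 8798 to 24289.6 CPM in the pancreas libraries and to 162 to 1993 CPM in the lungs. The liver libraries held 258 to 4313 CPM of them, except the labelled-off library 2 of day 7, with 35820.6 CPM. That library, the only one labelled as paired-end, had a median correlation of log2 CPM of 0.949 with the pancreas libraries and of 0.892 with the other liver libraries, and results that rest on it are given with and without it. In bulk samples fewer cells of a type and less RNA per cell cannot be told apart.

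Per kilobase of transcript, the latent binders *Ltbp3* and *Ltbp4* were the most abundant members and *Tgfb2* and *Tgfbr3* the least. With the transcript lengths in the table, the median level over the 35 libraries was 104.6 CPM per kb for *Ltbp3* and 73.7 for *Ltbp4*. *Tgfb1* (31.4), *Ltbp1* (23.6), *Tgfb3* (21.6), *Tgfbr2* (20.2) and *Ltbp2* (19.9 CPM per kb) followed, and these neighbours overlapped widely between libraries. *Tgfbr1* (7.19), *Tgfbr3* (2.76) and *Tgfb2* (1.97 CPM per kb) closed the order. With the merged exons of the GENCODE annotation *Ltbp3* is 9069 bases long and not 5190, which moved it to 59.8 CPM per kb, below *Ltbp4*. The order depended on the organ: in the pancreas *Tgfb3* (median 80.1) and *Ltbp2* (72.4 CPM per kb) stood beside *Ltbp4* (78.7), whereas in the lungs *Tgfb3* (20.0) and *Ltbp2* (15.4) stood well under *Tgfb1* (36.7).

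**Figure D1:**
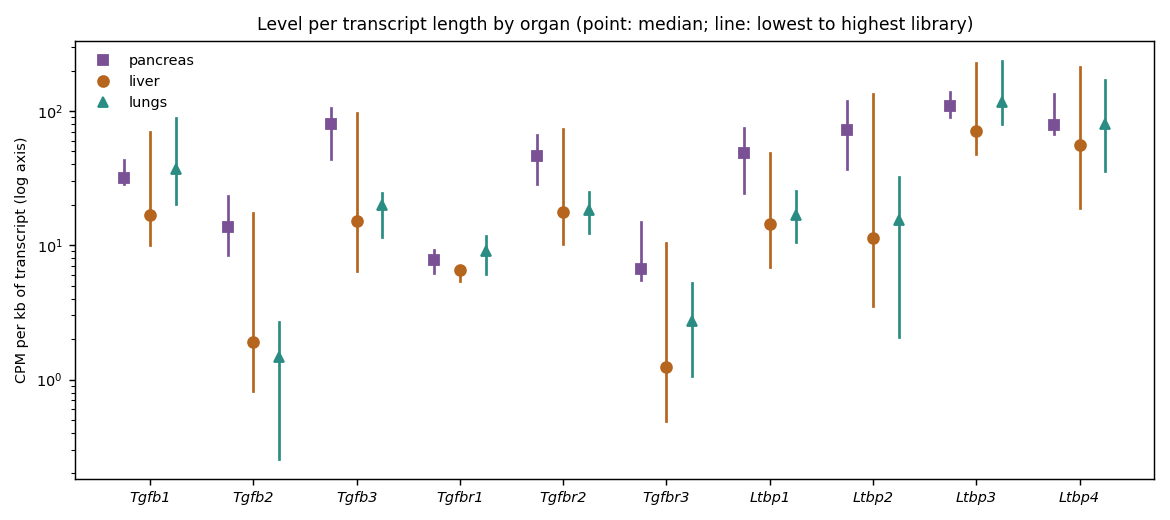
Level of each member in CPM per kilobase of transcript (log axis), by organ. Points are medians and lines run from the lowest to the highest library of 10 pancreas, 11 liver and 14 lung libraries; *Tgfb2*, *Tgfb3* and *Ltbp2* lie highest in the pancreas, and *Tgfbr1* is at 5.39 to 11.7 in all libraries.

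Among the ligands, *Tgfb1* (ENSMUSG00000002603, chr7:25687002-25705077, plus strand, GRCm38) encodes the most widely expressed isoform, and in these cells it separated the liver libraries by label. In the liver on day 7, *Tgfb1* was at 199.5 and 351 CPM in the labelled-off libraries and at 62.0, 50.6 and 69.9 CPM in those labelled on. On day 14 the liver values were 246, 117 and 113 CPM labelled off and 85.0, 71.9 and 69.8 CPM labelled on. No labelled-on liver library reached the lowest labelled-off one on either day, and the value of 351 CPM is that of the paired-end library. The share of all genes apart by label in a single organ and day is not given. Such separations, here and for the other members, therefore only describe these libraries. In the pancreas *Tgfb1* lay between 144 and 217 CPM, and on day 14 alone the labels did not overlap, with 189 and 217 CPM labelled off against 151, 158 and 144 CPM labelled on. In the lungs the labels overlapped on both days, at 133 to 444 CPM labelled off and 103 to 288 CPM labelled on.

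*Tgfb2* (ENSMUSG00000039239, chr1:186622792-186705989, minus strand) and *Tgfb3* (ENSMUSG00000021253, chr12:86056745-86079041, minus strand) encode the isoforms best known from development and mesenchyme, and both followed the organ. *Tgfb2* was at 49.2 to 134 CPM in the 10 pancreas libraries, 4.72 to 32.0 CPM in 10 of the 11 liver libraries and 1.49 to 15.4 CPM in the 14 lung libraries. The paired-end liver library held 101 CPM, within the pancreas range. *Tgfb3* showed the same picture, with 149 to 358 CPM in the pancreas, 21.9 to 117 CPM in those 10 liver libraries, 327 CPM in the paired-end one and 39.1 to 83.3 CPM in the lungs. No liver library other than the paired-end one, and no lung library, reached the lowest pancreas library for either ligand.

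Of the receptors, *Tgfbr1* (ENSMUSG00000007613, chr4:47353222-47414931, plus strand), the kinase that phosphorylates SMAD2 and SMAD3, varied least. It ran from 35.2 to 76.5 CPM over all 35 libraries, and the labels overlapped in each of the 6 combinations of organ and day. *Tgfbr2* (ENSMUSG00000032440, chr9:116084293-116175360, minus strand), the ligand-binding kinase, was at 235 to 546 CPM in the pancreas, 84.3 to 176 CPM in the liver without the paired-end library (602 CPM) and 100.3 to 205 CPM in the lungs. *Tgfbr3* (ENSMUSG00000029287, chr5:107106570-107289629, minus strand) encodes betaglycan, a co-receptor that presents TGFβ2 to TGFBR2. It was at 36.0 to 97.1 CPM in the pancreas, 3.24 to 16.3 CPM in the liver without the paired-end library (67.5 CPM) and 6.94 to 34.2 CPM in the lungs. In the pancreas on day 7 *Tgfbr3* stood at 39.1, 37.0 and 38.8 CPM labelled off and at 90.2 and 97.1 CPM labelled on, with no overlap.

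Among the latent binders, *Ltbp1* (ENSMUSG00000001870, chr17:75005568-75392512, plus strand), which binds latent TGFβ covalently and fixes it to the matrix, was lower in every labelled-on library than in every labelled-off library of the same organ and day. In the pancreas it was at 549, 776 and 539 CPM labelled off and 478 and 399.7 CPM labelled on (day 7), and at 597 and 613 CPM against 255, 329.9 and 310.0 CPM (day 14). In the liver the values were 292 and 453 CPM against 106, 81.1 and 151 CPM on day 7, and 508, 263 and 184 CPM against 79.7, 143 and 71.7 CPM on day 14. In the lungs they were 246, 258, 188 and 159 CPM against 153 and 153 CPM on day 7, and 267, 246, 247 and 260.2 CPM against 114, 121, 111 and 163 CPM on day 14. Thus *Ltbp1* did not overlap between labels in 6 of 6 combinations, which 17 of 17547 genes (0.0969%) did in this direction. Labelled-on libraries lay below labelled-off ones without overlap in at least 3 of 6 combinations for 4 members, *Tgfb1*, *Ltbp1*, *Ltbp3* and *Ltbp4*, and for 7.48% of genes.

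*Ltbp4* (ENSMUSG00000040488, chr7:27305136-27337692, minus strand), a binder of latent TGFβ1 that also organizes elastic fibers, was apart by label in the pancreas on day 14 (773 and 865 CPM off, 432, 472 and 455 CPM on). It was also apart in the liver on day 14 (629, 364 and 521 CPM off, 122, 186 and 268 CPM on) and in the lungs on day 7 (671, 504, 527 and 667 CPM off, 394 and 231 CPM on). In the lungs on day 14, 678, 477, 858 and 1098 CPM labelled off stood against 258, 319.5, 439 and 523 CPM labelled on, where only the second labelled-off value fell within the labelled-on range. *Ltbp3* (ENSMUSG00000024940, chr19:5740904-5758532, plus strand), a binder of latent TGFβ with known roles in bone and teeth, was at 547 and 1178 CPM labelled off and 274, 247 and 347 CPM labelled on in the liver on day 7. On day 14 its liver values were 492, 459.7 and 508 CPM against 308, 334 and 367 CPM, again with no overlap. *Ltbp2* (ENSMUSG00000002020, chr12:84783212-84876532, minus strand), a microfibril protein that does not bind latent TGFβ, followed the organ: 302 to 975 CPM in the pancreas, 28.9 to 178 CPM in the liver without the paired-end library (1102 CPM) and 16.96 to 266 CPM in the lungs.

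**Figure D2:**
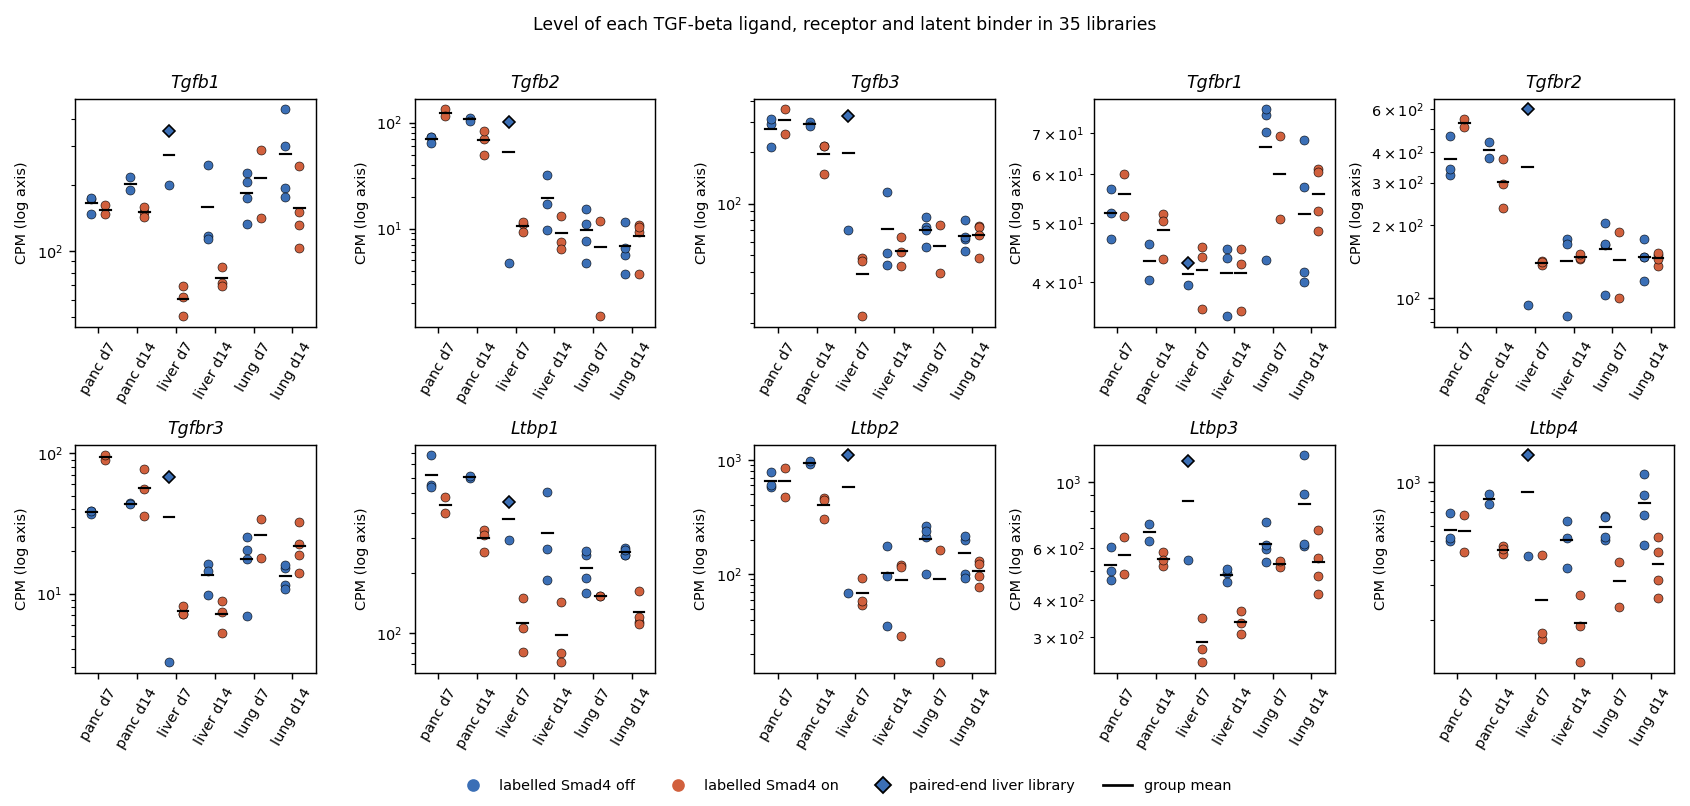
CPM (log axis) of the 10 members in each of the 35 libraries, by organ and day (panc, pancreas; d, day). Blue points are libraries labelled Smad4 off, orange points those labelled on, bars the group means and the diamond the paired-end liver library; *Ltbp1* is lower in the labelled-on libraries in 6 of 6 pairs of groups, and *Tgfb2*, *Tgfb3*, *Tgfbr2* and *Ltbp2* are highest in the pancreas and in the diamond.

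The promoters of *Tgfb1*, *Ltbp1*, *Ltbp3* and *Ltbp4* are shown because these members were lower in labelled-on libraries in the tests that follow. Each line gives the 250 bases before the RefSeq start site (GRCm38.p6; the start farthest upstream where RefSeq lists several), 5′ to 3′ on the strand of the gene. Capitals mark 3 motifs searched on both strands, which do not overlap in these lines: CAGAC, the core that SMAD3 and SMAD4 bind (GTCTG on the other strand), TGANTCA, the AP-1 site, and GGGCGG, the GC box (CCGCCC on the other strand). The positions are chr7:25686752-25687001 (plus strand) for *Tgfb1*, chr17:75005279-75005528 (plus) for *Ltbp1*, chr19:5740650-5740899 (plus) for *Ltbp3* and chr7:27337613-27337862 (minus) for *Ltbp4*.
Tgfb1: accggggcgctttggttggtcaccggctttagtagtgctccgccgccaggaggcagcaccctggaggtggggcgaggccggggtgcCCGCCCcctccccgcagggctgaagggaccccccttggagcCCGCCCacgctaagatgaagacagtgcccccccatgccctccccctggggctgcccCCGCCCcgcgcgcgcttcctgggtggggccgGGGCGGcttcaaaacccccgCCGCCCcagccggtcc
Ltbp1: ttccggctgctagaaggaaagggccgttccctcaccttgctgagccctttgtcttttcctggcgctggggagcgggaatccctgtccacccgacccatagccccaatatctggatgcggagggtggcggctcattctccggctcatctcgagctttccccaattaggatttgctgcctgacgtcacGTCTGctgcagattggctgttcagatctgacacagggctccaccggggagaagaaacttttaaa
Ltbp3: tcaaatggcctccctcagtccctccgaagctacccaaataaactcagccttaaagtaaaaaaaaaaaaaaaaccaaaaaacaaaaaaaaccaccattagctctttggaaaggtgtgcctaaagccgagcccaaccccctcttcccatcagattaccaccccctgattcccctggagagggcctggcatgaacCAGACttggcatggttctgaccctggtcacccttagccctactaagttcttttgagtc
Ltbp4: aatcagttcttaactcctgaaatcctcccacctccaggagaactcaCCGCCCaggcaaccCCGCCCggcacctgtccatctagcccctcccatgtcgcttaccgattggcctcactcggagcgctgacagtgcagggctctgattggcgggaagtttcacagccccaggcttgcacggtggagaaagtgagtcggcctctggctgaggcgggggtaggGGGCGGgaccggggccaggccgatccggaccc
CAGAC stood 1 time in the *Ltbp1* and 1 time in the *Ltbp3* promoter and not in the other two, and 42.2% of 32851 mouse promoters of this length hold it. GGGCGG stood 5 times in the *Tgfb1* and 3 times in the *Ltbp4* promoter, against 32.7% of promoters with at least 1. TGANTCA was in none of the 4 and is in 6.75% of promoters. These matches describe the letters in these windows only. RefSeq promoters were matched for 8 of the 10 members, and the other 2 are *Tgfb3* and *Tgfbr3*.

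The first question was whether the members differed between labels within each organ and day, and a call needed more than a 2-fold difference together with an adjusted p under 0.05 (edgeR, Benjamini-Hochberg over all genes tested). In the pancreas on day 7, 192 of 14439 genes (1.33%) were called and 1 of the 10 members was, *Tgfbr3*. It rose 2.47-fold (log2 fold change 1.30, SE 0.0932, adjusted p = 0.00366), and held without any 1 library, but not in a single fit of the 12 groups (adjusted p = 0.414). The fibroblast markers moved with it, at 23321 and 24289.6 CPM labelled on against 11849 to 16866 CPM labelled off. The acinar markers were lower (427 and 638 CPM labelled on, 1091 to 1969 CPM labelled off). So was the sum of the smooth muscle and pericyte markers (776 and 437 CPM on, 880 to 1205 CPM off), which in the pancreas was mostly *Acta2*. The part of these markers in the result was not tested. *Tgfb2* passed the adjusted p alone (log2 fold change 0.83, SE 0.119, adjusted p = 0.031), with 134 and 115 CPM labelled on against 73.2, 73.7 and 64.3 CPM.

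In the pancreas on day 14, 661 of 14234 genes (4.64%) were called, and *Ltbp2* fell 2.32-fold (log2 fold change -1.21, SE 0.185, adjusted p = 0.00974). Its levels were 921 and 975 CPM labelled off and 302, 461 and 444 CPM labelled on. The call ended without labelled-off replicate 1 (adjusted p = 0.0876) or 2 (0.102) and in the single fit of the 12 groups (0.718). *Ltbp1* (-0.998, adjusted p = 0.00212), *Ltbp4* (-0.83, 0.0019) and *Tgfb1* (-0.41, 0.0284) passed the adjusted p but not the fold. Fibroblast markers were at 12007 and 12689 CPM labelled off and 8798, 13008 and 17318 CPM labelled on. The sum of the smooth muscle and pericyte markers was lower without overlap in labelled-on libraries (226, 461 and 398 CPM against 1089 and 952 CPM). That of the leukocyte markers was higher without overlap (226, 229 and 211 CPM against 123 and 164 CPM). Over the pancreas libraries *Acta2* (median 807.8 CPM) led the first sum, ahead of *Rgs5* (7.233 CPM). *Cd14* (107.6 CPM) led the second, ahead of *Csf1r* (14.92 CPM). The part of these markers in these values was not tested. Over both days, with day as a term, 616 of 15093 genes (4.08%) and 0 members were called by edgeR and 0 members and 758 genes by DESeq2, while 5 members and 4725 genes had an unadjusted p under 0.05. *Ltbp1* (-0.75, SE 0.141, adjusted p = 0.00683) and *Tgfbr3* (0.83, SE 0.222, adjusted p = 0.0351) were under the fold threshold.

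In the liver on day 7 all 10 log2 fold changes were negative, with a median of -2.08 against -0.0591 over all 16007 genes tested. edgeR called 0 members and 71 genes (0.444%), 6 members and 4340 genes had an unadjusted p under 0.05, and DESeq2 called 6 members and 2842 genes (17.8%). The values closest to the threshold were *Tgfb1* (-2.25, SE 0.292, adjusted p = 0.0562) and *Ltbp1* (-1.80, SE 0.333, adjusted p = 0.065). The 10 log2 fold changes rested on the paired-end library to differing degrees. Without it 1 labelled-off library remained, so only effect sizes are given. *Tgfb1* was then at -1.82, *Ltbp1* at -1.48, *Ltbp3* at -1.03, *Tgfb3* at -0.96, *Ltbp4* at -0.85 and *Ltbp2* at -0.13. *Tgfb2* (1.06), *Tgfbr2* (0.48) and *Tgfbr3* (1.10) turned to positive log2 fold changes.

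On day 14 in the liver edgeR called 0 members and 0% of 14947 genes, with 5 members and 1447 genes at an unadjusted p under 0.05. DESeq2 called 332 genes (2.22%), among them *Ltbp1* (-1.76, adjusted p = 0.0115) and *Ltbp4* (-1.45, adjusted p = 0.00902). Over both days 959 of 16913 genes (5.67%) and 4 of the 10 members were called, all lower in labelled-on libraries. *Ltbp1* fell 3.40-fold (log2 fold change -1.77, SE 0.311, adjusted p = 0.0166), *Tgfb1* 3.10-fold (-1.63, SE 0.293, 0.0166), *Ltbp4* 3.10-fold (-1.63, SE 0.375, 0.0307) and *Ltbp3* 2.07-fold (-1.05, SE 0.242, 0.0307). Without the paired-end library *Ltbp1* (-1.67, adjusted p = 0.0291) and *Tgfb1* (-1.38, 0.0243) were still called, as were 593 of 18022 genes. *Ltbp3* was then under the fold threshold (-0.74, 0.0269) and *Ltbp4* missed the adjusted p (-1.26, 0.0696). The *Ltbp1* call held without any 1 of the 11 liver libraries (highest adjusted p 0.0499), and that of *Tgfb1* ended without labelled-on replicate 1 of day 7 (0.0521). The *Ltbp3* call ended without any 1 of 7 libraries (all 5 of day 7 and replicate 1 of each label on day 14) and the *Ltbp4* call without any 1 of 5 (the paired-end library, labelled-on replicates 1 and 2 of day 7 and replicate 1 of each label on day 14), at adjusted p up to 0.0777 and 0.0757. In these 10 other liver libraries the fibroblast markers ran from 258 to 4313 CPM labelled off and from 359 to 3016 CPM labelled on, and carcinoma markers from 10816 to 14714 and from 12846 to 14888 CPM. The library number within each day was also used as a block, on day 7 too, where it was not taken to mark pairs. None of the 4 members was then called over both days (edgeR, adjusted p from 0.0875 for *Ltbp1* to 0.136 for *Ltbp3*), and 0.0828% of genes were. The sum of the leukocyte markers separated the labels in the liver, at 120 to 191 CPM labelled off (55.8 CPM in the paired-end library) and 223 to 425 CPM labelled on. Without the paired-end library the hepatocyte markers had medians of 22.6 CPM off and 47.3 CPM on, and the mesothelial markers of 664 CPM off and 330.4 CPM on, both with overlap. Over the 11 liver libraries *Cd14* (median 180.5 CPM) led the leukocyte sum, ahead of *Cd68* (9.894 CPM). *Msln* (400 CPM) led the mesothelial sum, ahead of *Upk3b* (0.1653 CPM) and *Lrrn4* (0.1451 CPM). These 2 sums thus mostly follow 1 gene each. The part of these markers in the liver calls was not tested.

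In the lungs on day 7 edgeR called 0 members and 0% of 15193 genes (793 at an unadjusted p under 0.05), DESeq2 called 100 genes and 0 members, and 1 member, *Ltbp4*, had an unadjusted p under 0.05 (log2 fold change -0.92, SE 0.296, adjusted p = 0.894). On day 14 edgeR called 4 of 14751 genes (0.0271%) and 0 members, with 4 members and 1485 genes at an unadjusted p under 0.05, among them *Ltbp1* (-1.01, SE 0.144, adjusted p = 0.0687) and *Ltbp4* (-1.02, SE 0.312, 0.308). With the library number as a block, both were called by edgeR, *Ltbp1* at -1.03 (adjusted p = 0.00878) and *Ltbp4* at -1.01 (0.0202), as were 0.739% of genes. The number was taken to pair the lung libraries of that day from correlations in these same counts, and the labels do not say so. DESeq2 called *Ltbp1* and *Ltbp4* too, among 197 genes (1.34%). The leukocyte markers summed to 171 to 285 CPM labelled off and 296 to 429 CPM labelled on in the lungs on day 14, with no overlap. Over the lung libraries *Cd14* (median 254.1 CPM) led this sum, ahead of *Cd68* (8.993 CPM). The part of these markers was not tested. Over both days 28 of 16220 genes (0.173%) and 0 members were called by edgeR, 4 members and 1548 genes had an unadjusted p under 0.05 and DESeq2 called 178 genes and 0 members. *Ltbp1* passed the adjusted p without the fold (-0.78, SE 0.141, adjusted p = 0.0455). *Tgfbr3* had log2 fold changes of 0.58 and 0.71 in the lungs on days 7 and 14, neither past the threshold.

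**Figure D3:**
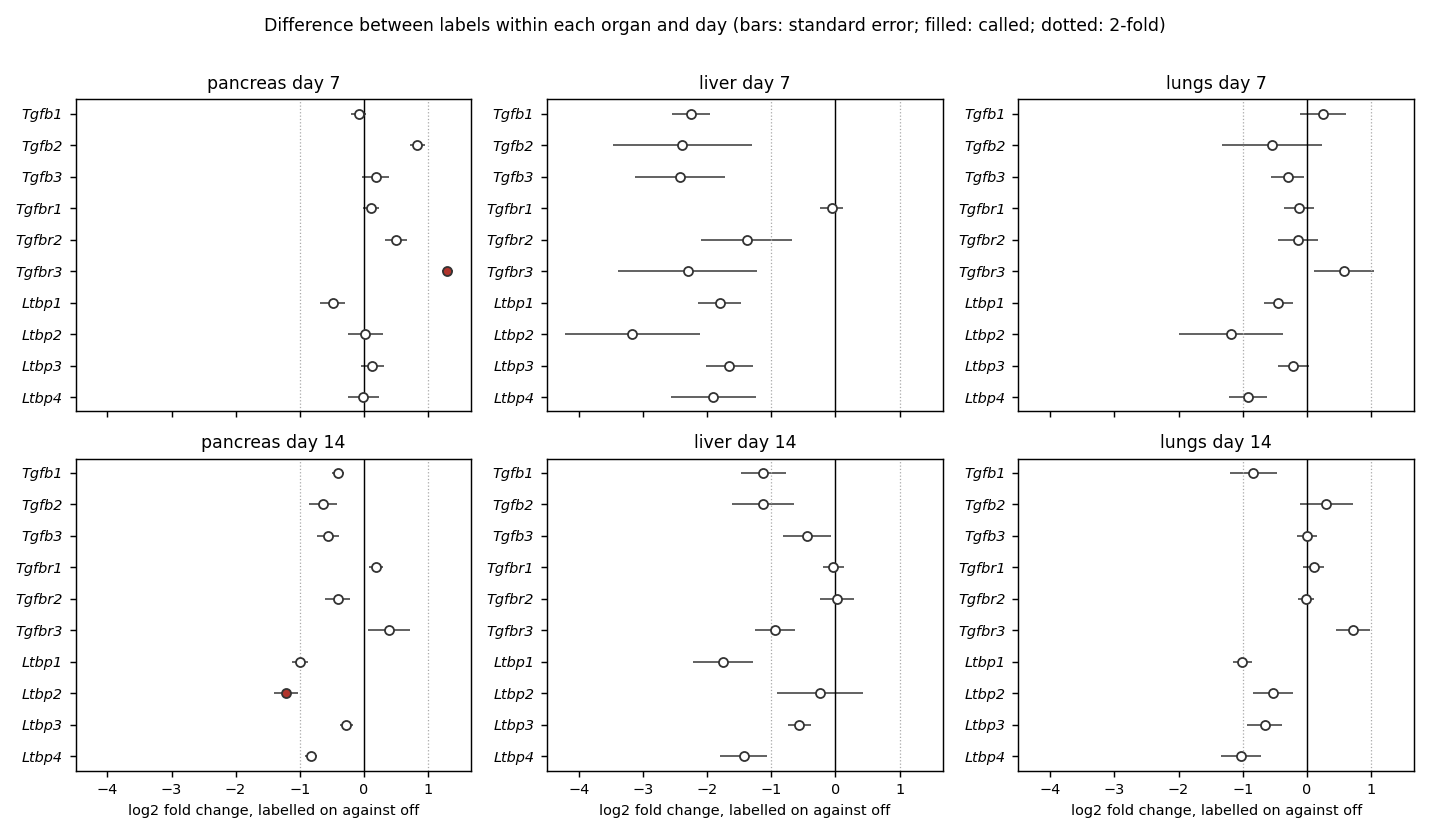
Log2 fold change of each member, labelled on against labelled off, within each organ and day; bars are standard errors, filled points are called genes and dotted lines mark a 2-fold difference. *Ltbp1* lies left of 0 in all 6 panels, and the widest bars are in the liver on day 7, where 1 of the 2 labelled-off libraries is the paired-end one.

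Over all 35 libraries, with organ and day as terms, 849 of 17547 genes (4.84%) and 2 members were called. *Ltbp1* fell 2.10-fold (log2 fold change -1.07, SE 0.144, adjusted p = 8.63e-06) and *Ltbp4* 2.02-fold (-1.02, SE 0.180, 0.000243). Without the paired-end library *Ltbp1* remained called (-1.002, adjusted p = 1.31e-05) and *Ltbp4* came under the fold threshold (-0.87, 0.000375). In that fit 694 of 18638 genes were called. Both sit at the fold threshold: leaving out labelled-off replicate 1 of the liver on day 14 brought *Ltbp1* to -0.99 (4.25e-06), and leaving out 1 of 8 libraries, 6 of the liver and 2 of the lungs, brought *Ltbp4* to between -0.999 and -0.868, with the adjusted p at most 0.000563. *Tgfb1* (-0.73, adjusted p = 0.00663), *Ltbp3* (-0.53, 0.00413) and *Ltbp2* (-0.96, 0.0411) passed the adjusted p alone. Without the paired-end library *Ltbp2* no longer did (-0.56, adjusted p = 0.143), while *Tgfb1* (-0.62, 0.0104) and *Ltbp3* (-0.42, 0.00431) still did. *Tgfbr1* did not pass in any comparison between labels, with log2 fold changes from -0.12 to 0.19 over the 6 combinations of organ and day.

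The difference of the label effect between liver and lungs was tested next, by the interaction of organ and label. On day 7, 305 of 16369 genes (1.86%) were called and 1 member was, *Tgfb1*, whose label effect was 5.39-fold lower in the liver than in the lungs (log2 difference -2.43, SE 0.479, adjusted p = 0.0419). Without the paired-end library the difference was -2.02 (adjusted p = 0.0977), and it lost the call without 9 of the 11 libraries in turn, with adjusted p from 0.0521 to 0.139. On day 14 the interaction called 0 members and 0% of 15869 genes, 1 member, *Tgfbr3*, and 478 genes had an unadjusted p under 0.05 and DESeq2 called 4 genes and 0 members.

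The comparison between organs at 1 label asked where the members were made most. In labelled-off libraries, where the pancreas libraries serve both contrasts, the lungs held less of 6 of the 10 members than the pancreas, when 3057 of 16606 genes (18.4%) were called in either direction. *Tgfb2* fell 11.1-fold (log2 fold change -3.47, SE 0.535, adjusted p = 0.000205), *Ltbp2* 4.68-fold (-2.23, SE 0.569, 0.00657), *Tgfb3* 4.26-fold (-2.09, SE 0.335, 0.000262), *Ltbp1* 2.76-fold (-1.46, SE 0.206, 9.71e-05), *Tgfbr3* 2.73-fold (-1.45, SE 0.451, 0.02) and *Tgfbr2* 2.61-fold (-1.38, SE 0.336, 0.00481). *Tgfbr3* lost the call without labelled-off pancreas replicate 1 (0.0713) or 2 (0.0693) of day 14, and with the replicate block (-1.30, 0.0649). *Tgfb1*, *Tgfbr1*, *Ltbp3* and *Ltbp4* were not called.

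Liver against pancreas, labelled off, 1442 genes (8.68%) were called and *Tgfb3* alone among the members (log2 fold change -1.28, SE 0.382, adjusted p = 0.0331). This comparison turned on the paired-end library, since without it 6 members and 2696 of 17572 genes were called. All 6 members were lower in the liver: *Ltbp2* (-3.05, adjusted p = 0.000153), *Tgfb2* (-2.54, 0.00158), *Tgfb3* (-1.98, 3.32e-05), *Tgfbr3* (-1.96, 0.00242), *Tgfbr2* (-1.61, 0.00017) and *Ltbp1* (-1.04, 0.00439). These are the members that were lower in the lungs. With all libraries, the *Tgfb3* call ended without any 1 of 8 libraries (pancreas replicates 2 and 3 of day 7 and both of day 14, liver replicate 1 of day 7 and all 3 of day 14), at adjusted p from 0.0511 to 0.0901. Liver against lungs, 656 genes (3.95%) were called and *Tgfb2* was higher in the liver (1.98, SE 0.520, adjusted p = 0.0338), which without the paired-end library came to 0.80 (adjusted p = 0.305). That call also ended without any 1 of 7 other libraries, lung replicates 2, 3 and 4 of day 7 and 1, 2 and 3 of day 14 and liver replicate 2 of day 14, at adjusted p from 0.0517.

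In labelled-on libraries, 3719 of 16751 genes (22.2%) were called between liver and pancreas and 8 of the 10 members were, all lower in the liver. *Tgfbr3* fell 9.85-fold (log2 fold change -3.30, SE 0.254, adjusted p = 3.3e-07), *Tgfb2* 9.32-fold (-3.22, SE 0.404, 1.56e-05), *Ltbp2* 6.54-fold (-2.71, SE 0.470, 0.000259) and *Tgfb3* 5.33-fold (-2.42, SE 0.260, 4.78e-06). *Ltbp1* (-1.78, SE 0.192, adjusted p = 4.43e-06), *Tgfbr2* (-1.45, SE 0.178, 1.16e-05), *Ltbp4* (-1.19, SE 0.294, 0.00397) and *Tgfb1* (-1.18, SE 0.225, 0.00053) also fell. *Ltbp3* (adjusted p = 0.00016) and *Tgfbr1* stayed under the fold threshold.

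Lungs against pancreas, labelled on, 2270 genes (13.6%) and 6 members were called, all lower in the lungs: *Tgfb2* (-3.47, SE 0.416, adjusted p = 3.63e-05), *Ltbp2* (-2.34, SE 0.470, 0.00191), *Tgfb3* (-1.97, SE 0.260, 7.58e-05), *Tgfbr3* (-1.57, SE 0.241, 0.000244), *Tgfbr2* (-1.40, SE 0.180, 5.86e-05) and *Ltbp1* (-1.35, SE 0.191, 0.000121). Liver against lungs, 1720 genes (10.3%) and 2 members were called, both lower in the liver. *Tgfbr3* stood at 5.28 to 8.79 CPM (median 7.30) in the 6 liver libraries and 14.1 to 34.2 CPM (median 20.8) in the 6 lung libraries (log2 fold change -1.73, SE 0.238, adjusted p = 0.000262). *Tgfb1* stood at 50.6 to 85.0 CPM (median 69.9) and 103 to 288 CPM (median 147), again with no overlap (-1.40, SE 0.218, 0.000579). All calls between organs in labelled-on libraries held without any 1 of the 17 libraries.

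**Figure D4:**
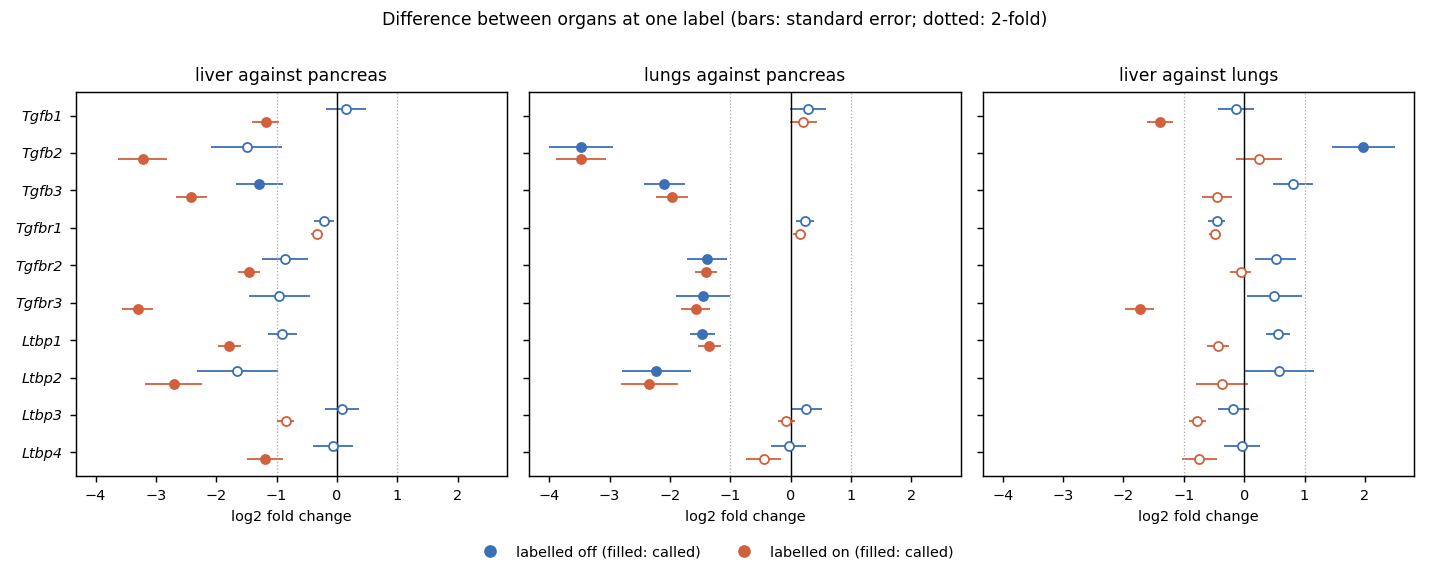
Log2 fold change of each member between organs, at each label; bars are standard errors, filled points are called genes and dotted lines mark a 2-fold difference. *Tgfb2*, *Tgfb3*, *Tgfbr2*, *Tgfbr3*, *Ltbp1* and *Ltbp2* lie left of -1 in the lungs against pancreas panel at both labels.

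The fibroblast markers moved with these organ differences. They were at 8798 CPM or more in every pancreas library and at 4313 CPM or less in every other library but the paired-end one. All 8 of them were detected in the pancreas, with medians from 20.8 CPM (*Pdpn*) to 7157 CPM (*Col3a1*). Within the metastases the extremes went the same way. The liver library with 4313 CPM of these markers (labelled-off replicate 2 of day 14) had the highest *Tgfb2* (32.0 CPM), *Tgfb3* (117 CPM), *Tgfbr2* (176 CPM) and *Ltbp2* (178 CPM) of the liver libraries without the paired-end one. The lung library with 162 CPM of them (labelled-on replicate 2 of day 7) had the lowest *Tgfb2* (1.49 CPM), *Tgfb3* (39.1 CPM), *Tgfbr2* (100.3 CPM) and *Ltbp2* (16.96 CPM) of the lungs. In that lung library *Tgfb1* was at 288 CPM, the highest of the labelled-on lung libraries. The sum of the smooth muscle and pericyte markers (*Acta2*, *Myh11*, *Cspg4*, *Rgs5*, *Des*) was also higher in the pancreas, at 226 to 1205 CPM against 11.1 to 216 CPM in the metastases other than the paired-end library (616 CPM). *Acta2* carried this sum, with medians of 807.8, 58.74 and 42.77 CPM in pancreas, liver and lungs. *Cspg4* (2.184, 1.785 and 0.6481 CPM) was also highest in the pancreas. *Myh11* (1.496, 1.651 and 1.062 CPM) and *Rgs5* (7.233, 9.492 and 1.859 CPM) were highest in the liver, and *Des* (1.077, 0.7206 and 2.191 CPM) in the lungs. The sum of the leukocyte markers (*Ptprc*, *Cd68*, *Adgre1*, *Csf1r*, *Itgam*, *Cd14*) did not separate the organs, at 81.5 to 229 CPM in the pancreas and 55.8 to 429 CPM elsewhere. *Cd14* led this sum, with medians of 107.6, 180.5 and 254.1 CPM in pancreas, liver and lungs. *Csf1r* (14.92, 4.826 and 5.148 CPM), *Adgre1* (4.842, 1.322 and 1.21 CPM) and *Itgam* (1.517, 0.5382 and 0.5144 CPM) were highest in the pancreas. *Ptprc* (3.671, 2.479 and 3.697 CPM) and *Cd68* (8.752, 9.894 and 8.993 CPM) were not. The libraries come from cells sorted as mKate2+. Lung epithelium markers (*Sftpc*, *Sftpa1*, *Sftpb*, *Scgb1a1*, *Ager*) summed to 64.3 to 499.6 CPM in the lung libraries and to 0.580 to 1.72 CPM elsewhere. Acinar markers (*Prss2*, *Cpa1*, *Cela1*, *Cel*, *Pnlip*) summed to 427 to 2036 CPM in the pancreas. In the metastases they summed to 2.69 to 16.8 CPM, with 221 CPM in the paired-end library. The part of these markers in the organ differences was not tested.

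**Figure D5:**
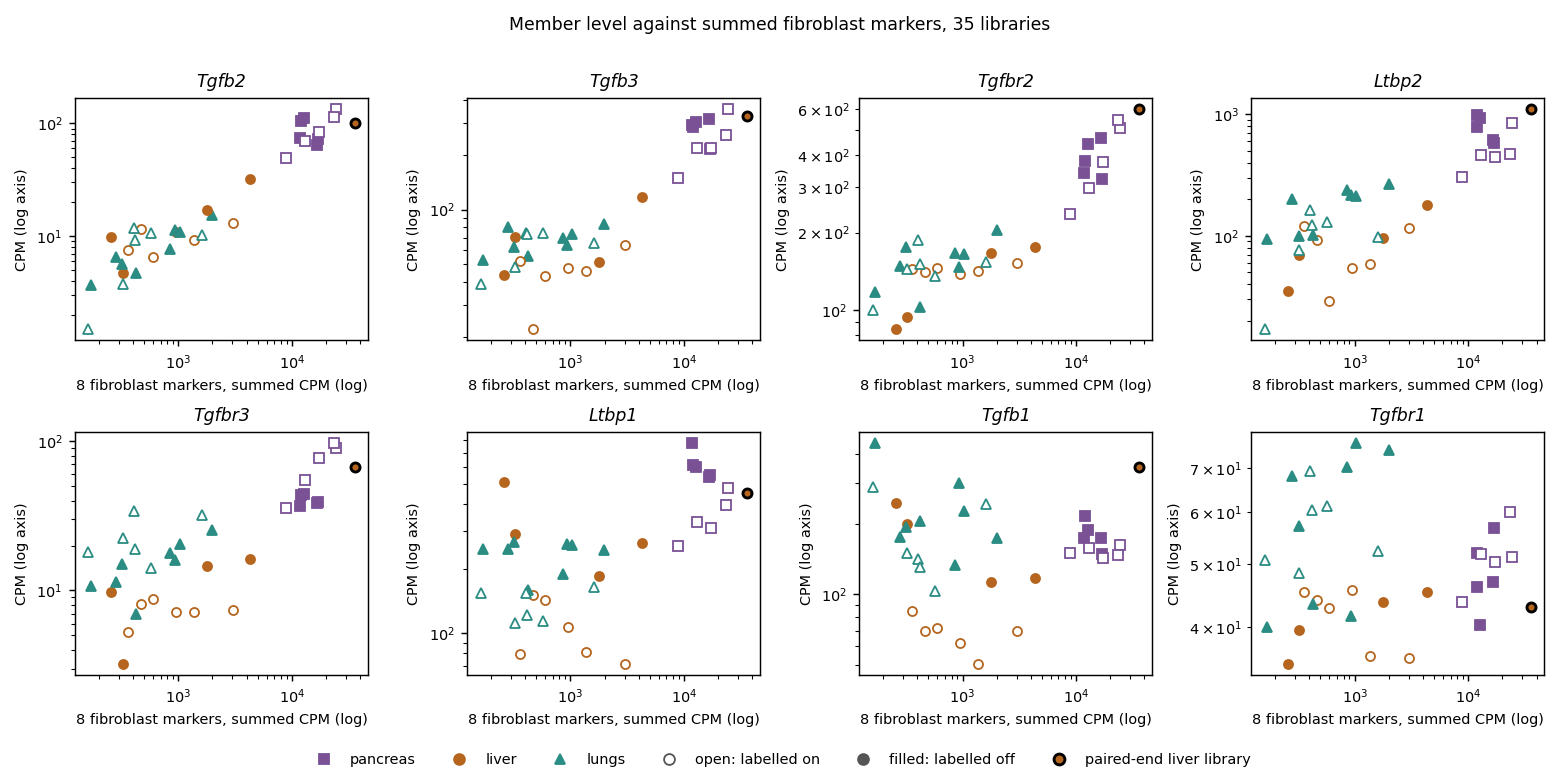
CPM of 8 members against the summed CPM of the 8 fibroblast markers in the 35 libraries (both axes log); color and shape give the organ, open points are libraries labelled on and the black outline is the paired-end liver library. *Tgfb2*, *Tgfb3*, *Tgfbr2* and *Ltbp2* are high in the libraries with 8798 CPM or more of these markers, and *Tgfb1* and *Tgfbr1* are not ordered by them.

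Day 14 against day 7, with organ as a term, gave 0 members and 0% of 16606 genes in labelled-off libraries by edgeR, with 0 members and 1238 genes at an unadjusted p under 0.05. In labelled-on libraries it gave 0 members and 0% of 16751 genes, with 1 member, *Ltbp1*, at an unadjusted p under 0.05 (log2 fold change -0.33, SE 0.155, adjusted p = 0.665). There 1258 genes had an unadjusted p under 0.05, and DESeq2 called 8 genes labelled off, 13 labelled on and 0 members in either.

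Lists of other genes of the pathway were followed in the same fits. Of 17 genes for the activation of latent TGFβ, 10 were lower and 1 higher in the lungs than in the pancreas at either label. Over all genes 18.4% labelled off and 13.6% labelled on were called in either direction. The list medians were -1.35 labelled off and -1.18 labelled on, against -0.0067 and 0.0409 over all genes. The lowest adjusted p values labelled off belonged to *Fbn2*, a fibrillin that anchors latent complexes (-4.36, adjusted p = 4.69e-05), *Mmp9* (-2.46, 0.000101) and *Mmp2* (-4.91, 0.000679), both matrix proteases. *Itgb6*, the epithelial integrin subunit that frees TGFβ from the latent complex, went the other way, higher in the lungs (1.34, adjusted p = 0.0204 labelled off; 1.29, 0.0276 labelled on) and the liver (1.69, 0.0266; 2.89, 8.35e-05). Between liver and pancreas labelled on, 11 of the 17 were lower and 1 higher (median -1.72), with 22.2% of all genes called. Labelled off, 1 was lower and 1 higher, with 8.68% of all genes called. Without the paired-end library 10 were lower and 1 higher, when 2696 of 17572 genes were called in either direction.

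Between labels over both days, *Mmp9* was higher in labelled-on libraries of the pancreas (log2 fold change 3.51, SE 0.374, adjusted p = 0.000808) and the lungs (3.04, SE 0.537, 0.043). In the liver 4 of the 17 genes were lower, among them *Bmp1*, a protease that cleaves LTBP1 (-2.38, SE 0.338, 0.0132), *Itgb3* (-3.20, SE 0.599, 0.0179) and *Itgb1* (-1.05, SE 0.200, 0.0187), and without the paired-end library 2 were, *Bmp1* and *Itgb3*. Of 14 co-receptors, modulators and receptor partners, 2 were lower in the liver over both days, *Cd109*, a TGFβ co-receptor that dampens the signal (-2.85, SE 0.451, adjusted p = 0.0146), and *Dab2*, an endocytic adaptor of the receptors (-1.70, SE 0.444, 0.0422), the latter not without the paired-end library. *Dcn*, decorin, is in this list and among the fibroblast markers. Of 11 genes of the intracellular pathway and its targets, 4 were lower in labelled-on liver libraries, among them *Smad7*, the inhibitory SMAD (-1.12, SE 0.192, 0.0161), *Pmepa1* (-1.30, SE 0.287, 0.028) and *Tgfbi* (-2.82, SE 0.678, 0.0347), and 0 without the paired-end library.

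The genes whose mean log2 CPM followed each member most closely over the 12 groups were taken from 17546 others, by Pearson's r, which is given as a description, since the groups share organ and library effects. *Tgfb1* and *Ltbp3* were among the 3 nearest of each other (r = 0.970), as the only pair of members. *Tgfb2* was nearest *Gata2* (0.993), *Mxra8* (0.991) and *Lama4* (0.991), and *Tgfb3* nearest *Cnpy4* (0.994), *Amer1* (0.992) and *Fam114a1* (0.989). *Tgfb1* was nearest *Ptprn* (0.972), *Ltbp3* and *Anks1b* (0.969), and *Ltbp3* was near *Marcksl1* (0.975) and *Tgfb1*. *Tgfbr2* was nearest *Fzd1* (0.990), *Tmem2* (0.988) and *Gm44758* (0.986), and *Tgfbr3* nearest *Brd3os* (0.974), *E530011L22Rik* (0.965) and *Adam17* (0.960). *Ltbp1* was nearest *Ank* (0.991), *Amotl1* (0.990) and *Rai14* (0.987), *Ltbp2* nearest the protocadherins *Pcdhb17* (0.993), *Pcdhb18* (0.988) and *Pcdhga6* (0.981), and *Ltbp4* nearest *Piezo2* (0.956), *Mrgpre* (0.951) and *Tenm4* (0.948). *Tgfbr1* was least closely followed, by *Gm43859* (0.936), *AC159193.3* (0.919) and *Zfp697* (0.914). Among the members themselves, *Tgfb2*, *Tgfb3*, *Tgfbr2* and *Ltbp2* had r between 0.903 and 0.968 with each other, and *Tgfb1* had r of 0.113 with *Tgfb2*.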

How the data were processed

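mKate2+ cells were sorted, and polyA-selected stranded libraries were sequenced as single-end reads, 1 library being labelled paired-end. According to the labels, reads were checked with FastQC 0.11.5, trimmed with Trimmomatic 0.36, aligned to GRCm38 (mm10) with STAR 2.5.3a and counted with featureCounts 1.6.3. The authors deposited counts per gene, whole numbers that are not normalized, for 53465 genes and 35 libraries, and 0 columns were left without a sample; 0 libraries repeated another. The strand setting of the counting is not given in the sources used here, so overlapping antisense reads may be included. Gene positions in the table equal those of GENCODE vM21 for the 10 members.

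Libraries were grouped by organ, day and Smad4 label, and the members and gene lists were chosen with earlier results of these data known. Genes were filtered with filterByExpr (at least 10 counts per gene and 15 in total), normalized with TMM factors and then tested with edgeR 4.0.16 quasi-likelihood fits (robust) in R 4.3.3, over all genes. SE is the absolute log2 fold change divided by the square root of F. In the 20 comparisons a gene was called at a fold over 2 and a Benjamini-Hochberg adjusted p under 0.05. CPM use TMM-scaled totals over all libraries, and counting error alone is covered by the floor of 3 counts. Each fit was tested on simulated data. Every member is named; fold changes are given for called members, those that passed 1 threshold or came near it and values a left-out library moved; at most 3 called genes per list and comparison are named, by the lowest adjusted p, plus *Itgb6*, chosen after its values were seen. For likeness, log2 CPM had a prior count of 2. An allele of the cells and a gene near *Ltbp3* in likeness are not reported here.

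Same-numbered libraries of both labels deviated together from their group means on day 14 in the liver (r = 0.125, 0.121 and 0.549) and in the lungs (0.475, 0.487, 0.551 and 0.517), so the number was taken to pair those libraries only; the labels do not say what it marks. On day 7 and in the pancreas r ran from -0.307 to 0.338, a range that holds the liver values of 0.125 and 0.121. The pairing in the liver thus rests mainly on the value of 0.549. Alternatives were DESeq2 1.42.0 (the study's tool), its size factors, no filter on low counts, no fold threshold, 1 model for the 12 groups together, a term for *mt-Co3* (counted in 10 libraries), the library number as a block and leaving out each library. Figures were drawn with Python 3.11.15 and matplotlib 3.10.9.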

Additional observations from a re-analysis of the deposited data

Results flagged for a closer look

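The label effect on *Tgfb1* differed between liver and lungs on day 7 by the interaction test of edgeR, at a log2 difference of -2.43 (SE 0.479, adjusted p = 0.0419). Liver values were 199.5 and 351 CPM labelled off and 62.0, 50.6 and 69.9 CPM labelled on, whereas lung values were 174, 226, 133 and 206 CPM labelled off and 142 and 288 CPM labelled on. The lung library at 288 CPM was 1 of the 10 with *mt-Co3* counts and held the fewest fibroblast marker counts of any library (162 CPM); without it the difference was -1.79 (adjusted p = 0.139). On day 14 the same interaction was not called for *Tgfb1*. No member had a library standing apart from the other 3 in a lung group of 4 libraries, in 30 tests of which chance flags about 1 in 20.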

How the results depend on the processing

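Of 780 values of called members under alternatives, 715 kept their direction and their call, 65 kept the direction only and 0 reversed, and 21 of the 33 called pairs of member and comparison held under every alternative run for them. Without a fold threshold a called member keeps its call by construction. Most of the other values come from fits that leave out 1 library and share the rest, so they are not independent checks. Counts of called members moved as follows, with the cause not tested. With DESeq2 they became 6 (liver day 7, with 17.8% of genes called) and 2 (pancreas, liver and lungs day 14, with 5.85%, 2.22% and 1.34%). They became 7 for the liver over both days (12.1% of genes), 3 for liver against pancreas, off (11.6%) and 3 for the interaction on day 7 (11.5%). With the size factors of DESeq2 they became 2 (pancreas day 14). For the other alternatives, apart from the replicate block, the share of all genes is not given. Those counts have no background beside them and are not a result about the members. The single fit of 12 groups gave 0 (pancreas, both single days), 9 and 1 (liver day 7 and day 14), 8 (liver both days), 2 (liver against pancreas, off) and 4 (interaction day 7). Without the filter on low counts they were 3 (liver day 7), 2 (pancreas day 14), 1 (lungs day 14) and 0 (liver against pancreas and against lungs, off). The *mt-Co3* covariate gave 4 (liver day 7), 2 (lungs day 14) and 0 (liver against lungs, off). Without a fold threshold they were 2 and 4 (pancreas days 7 and 14), 2 and 1 (pancreas and lungs both days), 5 (all libraries), 2 (liver against pancreas, off) and 4 (liver against lungs, on).

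The replicate block gave 2 for the lungs on day 14 (0.739% of genes), where the numbers were taken to pair the libraries, and changed no call in the liver on day 14. Over both days in the liver, a fit that holds those day 14 libraries and blocked those of day 7 by number too, it gave 0 (0.0828% of genes). The 4 members called there had adjusted p from 0.0875 to 0.136 by edgeR with the block. Elsewhere, where the libraries share only a number, the block gave 0 for pancreas day 7 (0% of genes), liver against lungs off (3.11%) and interaction day 7 (0%). It gave 2 for pancreas day 14 (3.89%) and for liver against pancreas, off (9.14%). For lungs against pancreas, off, it gave 5 in place of 6 (16.4%). Leaving out each library gave 0 to 9 (liver day 7), 0 to 2 (pancreas day 14), 0 to 1 (lungs day 14; lungs both days; liver against lungs, off), 1 to 4 (liver both days), 1 to 3 (all libraries), 0 to 6 (liver against pancreas, off), 5 to 6 (lungs against pancreas, off) and 0 to 5 (interaction day 7); the 9 and the 5 arose without labelled-off replicate 1 of the liver on day 7, when the paired-end library was the only one with that label. Every member had at least 24 counts in every library.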
